A study of Mus musculus with 6 samples.

Results

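A set of 10 secreted or matrix-building genes is described here: the thrombospondins Thbs1, Thbs2, Thbs3 and Thbs4, tenascin C (Tnc), periostin (Postn), Sparc, versican (Vcan), hyaluronan synthase 2 (Has2) and fibronectin (Fn1). They were taken by name from a set of matricellular and provisional matrix genes, through probe sets of the array that carry exactly 1 gene symbol. All 10 were measured, each by 1 probe set, out of 19938 genes compared in all. The study hybridised RNA from the ascending aorta (3 arrays) and the descending aorta (3 arrays) of untreated wild-type C57BL/6 mouse embryos 13.5 days after coitus. It asked which genes differ between vessel segments of different embryonic origin, neural crest against mesoderm. The labels name the arrays of a segment as separate biological replicates but do not say how many embryos stand behind one array, so the adjusted p-values rest on the spread between these arrays, which may be partly technical. A dissected segment holds the whole vessel wall and whatever tissue adhered to it, not isolated smooth muscle.

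Matricellular proteins are secreted into the matrix but do not build its load-bearing fibres; they bind receptors, growth factors and structural proteins and change how cells attach, migrate and respond. Provisional matrix, rich in fibronectin, versican and hyaluronan, is the loose and hydrated matrix laid down early in vessel and heart valve development and again after injury. Versican is a large proteoglycan that binds hyaluronan through its N-terminal domain, Has2 is the membrane enzyme that makes most of the hyaluronan of the embryonic heart, and ADAMTS proteases cleave versican.

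In the comparison of all arrays, 8 of the 10 genes had a lower mean in ascending aorta, led by Tnc, Vcan and Postn, and Has2 had a higher one. The median difference (ascending minus descending, log2) over the 10 was -0.22, beside -0.021 over all genes, of which 56.2% had a lower mean in ascending aorta. No member passed an adjusted p of 0.05 in limma, as for the series as a whole, where 0% of genes passed; 4 members had an unadjusted p under 0.05, beside 9.29% of all genes. The descending arrays lay together and the ascending arrays did not: for Tnc, Postn, Vcan and Thbs4 the array labelled ascending aorta replicate 3 lay on or near the descending values. Without that array the 4 genes were lower in ascending aorta, by 1.81-fold for Tnc, 1.63-fold for Vcan, 1.55-fold for Postn and 1.38-fold for Thbs4. That fit kept ascending replicate 2, which held the lowest value of each of these 4 genes. Without ascending replicate 2, and with replicate 3, the log2 differences were -0.28 for Tnc, -0.35 for Vcan, -0.27 for Postn and -0.19 for Thbs4. None of them passed in that fit.

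Of the 6 arrays, ascending replicate 3 was across all genes more like the descending arrays (mean Pearson's r = 0.996) than like the other ascending arrays (mean r = 0.988), with genes not being independent replicates. The smooth muscle actin Acta2 lay between 13.63 and 13.77 on all 6 arrays and the smooth muscle protein Tagln between 12.04 and 12.62. Both were far above the median gene, which lay between 7.85 and 7.90. Tagln was less even than Acta2, at 12.62, 12.48 and 12.04 in ascending and 12.24, 12.24 and 12.14 in descending aorta. Of the 9-gene smooth muscle list, Smtn lay between 10.68 and 10.91, while Des and Myh11 spread more. Des measured 10.38, 10.82 and 8.68 in ascending and 8.50, 8.36 and 8.80 in descending aorta. Myh11 measured 10.39, 9.43 and 10.19 against 10.42, 10.63 and 10.55. By their means 4 of the 9 were lower and 5 higher in ascending aorta. Acta2 and Tagln were not taken by a rule, and Smtn, Des and Myh11 were picked after their values were seen. The choice to leave out ascending replicate 3 was made from the expression values themselves. This tends to give the fit without that array p-values that are too small. The difference over all arrays is given as well for each member and related gene that passed in that fit. Array weights estimated in limma were lowest for ascending replicate 2 (0.567), followed by descending replicate 1 (0.577) and ascending replicate 3 (0.628). For the 4 members that passed without this array, and for Tnn, Sparcl1, Spock3, Cemip, Adamts4, Adamts1, Tgm2 and Egfr, that fit gave the lowest adjusted p of all alternatives tried and the highest was 0.841. In RNA from whole tissue, fewer cells of a type and less RNA per cell cannot be told apart. Probe sets differ in how strongly they bind, so a signal is set only against the median gene of the array, as a rough guide, and the members are not ranked by level.

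Promoter windows are shown for Tnc, Postn, Vcan and Thbs4, because these 4 genes passed the test without ascending replicate 3. They are RefSeq windows of mouse build GRCm38.p6, from 250 bases before to 50 bases after a transcription start, and a window was at hand for 7 of the 10 genes. Capitals mark matches on either strand to TATAAA, the letters of a TATA box, or to GGGCGG, those of a GC box.
Tnc, chr4:64046966-64047265, minus strand: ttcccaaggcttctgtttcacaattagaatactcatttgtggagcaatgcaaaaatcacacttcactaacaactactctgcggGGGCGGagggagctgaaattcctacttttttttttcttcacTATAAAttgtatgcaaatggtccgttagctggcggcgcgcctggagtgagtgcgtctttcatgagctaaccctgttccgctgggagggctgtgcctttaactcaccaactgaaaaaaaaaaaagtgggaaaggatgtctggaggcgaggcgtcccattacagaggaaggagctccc
Postn, chr3:54360857-54361156, plus strand: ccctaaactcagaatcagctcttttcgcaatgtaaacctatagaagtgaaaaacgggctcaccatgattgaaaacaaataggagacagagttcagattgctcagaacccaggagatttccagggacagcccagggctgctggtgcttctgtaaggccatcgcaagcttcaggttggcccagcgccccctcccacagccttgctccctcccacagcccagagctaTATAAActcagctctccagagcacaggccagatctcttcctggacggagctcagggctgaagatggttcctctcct
Vcan, chr13:89742463-89742762, minus strand: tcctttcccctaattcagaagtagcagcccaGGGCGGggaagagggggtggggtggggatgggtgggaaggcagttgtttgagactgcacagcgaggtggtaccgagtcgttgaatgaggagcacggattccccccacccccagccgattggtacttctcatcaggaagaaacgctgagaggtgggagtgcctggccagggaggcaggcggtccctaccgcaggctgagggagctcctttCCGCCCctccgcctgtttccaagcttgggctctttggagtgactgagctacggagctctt
Thbs4, chr13:92794769-92795068, minus strand: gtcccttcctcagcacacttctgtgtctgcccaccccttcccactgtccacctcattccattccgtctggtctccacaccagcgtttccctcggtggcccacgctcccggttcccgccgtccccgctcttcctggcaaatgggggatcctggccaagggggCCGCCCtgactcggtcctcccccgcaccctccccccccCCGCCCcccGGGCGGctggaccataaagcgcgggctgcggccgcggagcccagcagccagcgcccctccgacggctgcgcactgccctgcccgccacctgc

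Neither motif stood in all 4 windows. The first base of TATAAA stood 26 bases before the start in the Postn window and 126 bases before it in the Tnc window. At least 1 GC box match stood in the windows of Tnc (1 match), Vcan (2 matches) and Thbs4 (3 matches), and 0 in that of Postn. Among all 32851 windows, 13.6% hold TATAAA and 35.7% hold GGGCGG, counted on both strands. The AP-1 letters TGANTCA, present in 7.81% of all windows, were not found in the windows of any of the 7 genes. Tnc and Postn each have a further window in the table; that of Tnc overlaps the printed one, and that of Postn holds none of the 3 motifs. The windows also differ in base composition, with 47.3% G and C for Tnc, 53% for Postn, 61% for Vcan and 72% for Thbs4, where the median over all windows is 52.7%. These matches are letters in a window and say nothing on whether a factor binds there.

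Thrombospondins are calcium-binding glycoproteins, of which Thbs1 and Thbs2 form trimers and inhibit angiogenesis through CD36, and Thbs3 and Thbs4 form pentamers. Thbs1 (probe set 10474700) measured 11.79, 11.45 and 11.44 on ascending replicates 1, 2 and 3 and 11.53, 11.60 and 11.46 on the descending replicates. Ascending replicate 1 was the highest of the 6 arrays and the groups overlapped. The difference was 0.028 ± 0.11 (SE), with a 95% interval from -0.23 to 0.29 (limma adjusted p = 0.941). This interval leaves room for a change of either sign up to about the size seen for Thbs2. The small difference turned to -0.088 without ascending replicate 1 and to -0.0057 without descending replicate 3.

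Thbs2 (probe set 10447951) measured 12.05, 12.28 and 12.33 in ascending aorta and 12.61, 12.42 and 12.53 in descending aorta. All 3 ascending arrays, replicate 3 included, lay below all 3 descending arrays. The difference was -0.30 ± 0.10 (SE; limma adjusted p = 0.53), and -0.35 ± 0.11 without ascending replicate 3 (limma adjusted p = 0.14). On this gene, ascending replicate 3 lay 0.53 of the way from the descending mean toward the mean of the other ascending arrays, so the order of the segments did not rest on replicates 1 and 2 alone.

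Thbs3 (probe set 10493449) had ascending values of 9.305, 9.432 and 9.446 and descending values of 9.489, 9.626 and 9.453. The segments did not overlap, but ascending replicate 3 and descending replicate 3 nearly coincided. The difference of -0.13 ± 0.084 (SE) had a 95% interval from -0.33 to 0.068 (limma adjusted p = 0.633).

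Thbs4 (probe set 10411082), the pentameric thrombospondin best known from tendon and muscle, measured 7.35, 7.17 and 7.74 in ascending aorta and 7.79, 7.70 and 7.70 in descending aorta. The first 2 ascending arrays were the lowest of the 6, and the third exceeded 2 of the descending arrays. The segment means of 7.42 ± 0.29 and 7.73 ± 0.050 (SD, n = 3 each) differed by -0.31 ± 0.14 (SE; limma adjusted p = 0.538). Without ascending replicate 3 it was lower by 1.38-fold, a difference of -0.47 ± 0.098 (limma adjusted p = 0.0365). Without ascending replicate 2, the lowest array, the difference was -0.19 and did not pass (limma adjusted p = 0.743). The Thbs4 signal lay below the median gene of the array, where RMA makes differences smaller.

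**Figure D1:**
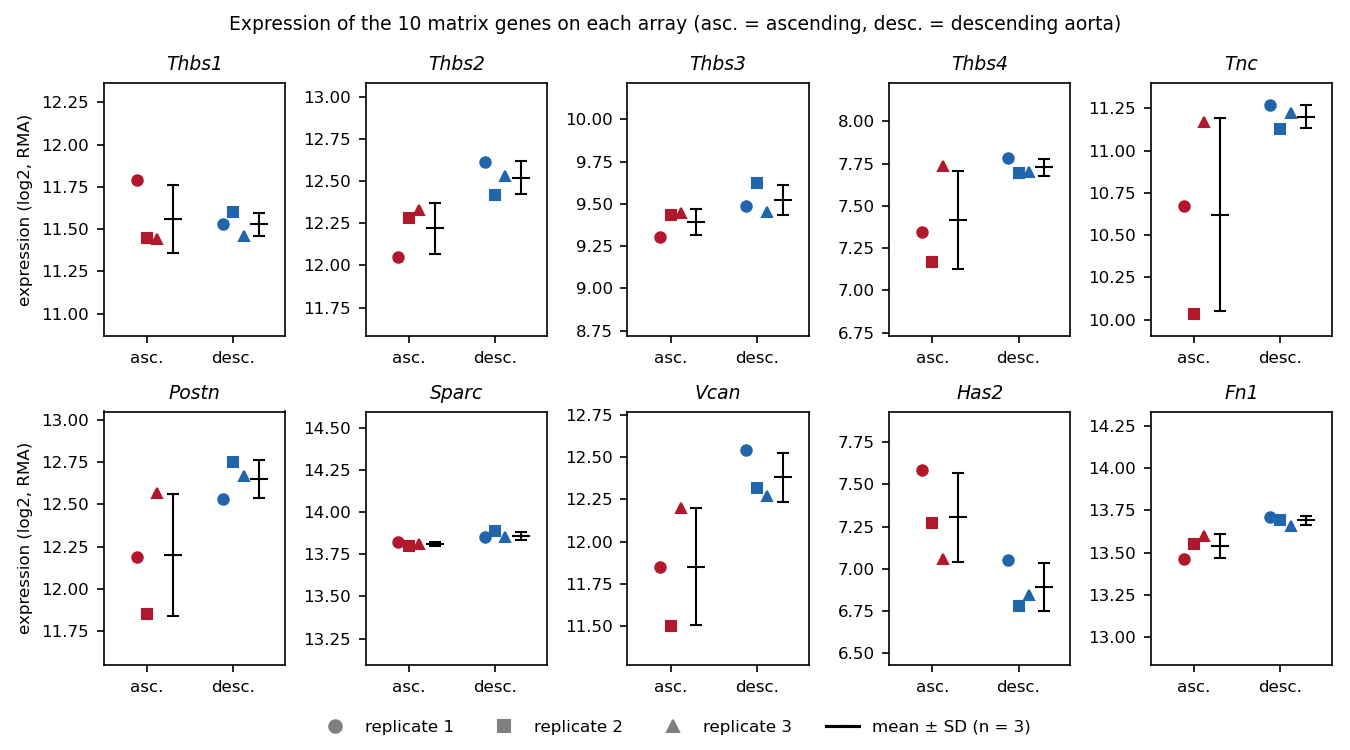
Expression (log2, RMA) of each of the 10 genes on each array, with red symbols for ascending and blue for descending aorta, a symbol shape per replicate number, and black bars for the mean ± SD of 3 arrays; every panel spans the same height in log2 units. The red triangles (ascending replicate 3) lie at the descending level for Tnc (11.17), Postn (12.57) and Thbs4 (7.74), while Sparc stays between 13.80 and 13.89.

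Tenascin C is a hexameric glycoprotein of embryonic mesenchyme, of sites of tissue remodelling and of the developing outflow tract. Tnc (probe set 10513739) measured 10.67, 10.03 and 11.17 on ascending replicates 1 to 3 and 11.27, 11.13 and 11.22 on the descending replicates. Replicates 1 and 2 of the ascending aorta were below every descending array, but replicate 3 fell among them. The ascending arrays spread far more (SD 0.57) than the descending ones (SD 0.069). Over all arrays the difference was -0.58 ± 0.25 (SE), the largest of the 10 genes (limma adjusted p = 0.538). Without ascending replicate 3 it was -0.85 ± 0.18, or 1.81-fold lower (limma adjusted p = 0.0341), and without ascending replicate 2, the lowest array, it was -0.28 and did not pass (limma adjusted p = 0.721).

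Periostin is a fasciclin-domain protein of fibroblasts, periosteum and heart valve mesenchyme that binds integrins, collagen and tenascin C. Postn (probe set 10492021) measured 12.19, 11.85 and 12.57 in ascending aorta and 12.53, 12.75 and 12.67 in descending aorta. As for Tnc, ascending replicate 2 was lowest and replicate 1 next, with replicate 3 above descending replicate 1. The means were 12.20 ± 0.36 and 12.65 ± 0.11 (SD, n = 3 each), a difference of -0.45 ± 0.17 (SE; limma adjusted p = 0.53). It was -0.63 ± 0.13 without ascending replicate 3 (limma adjusted p = 0.0317) and -0.27 without ascending replicate 2.

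Sparc (probe set 10386058), a collagen-binding glycoprotein also called osteonectin, was the most even of the 10. It measured 13.82, 13.80 and 13.81 in ascending aorta and 13.85, 13.89 and 13.85 in descending aorta. The ascending arrays were all below the descending ones, by a difference of -0.051 ± 0.068 (SE), and the 95% interval ran from -0.21 to 0.11 (limma adjusted p = 0.819).

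Versican is the hyaluronan-binding proteoglycan of the vessel wall and the endocardial cushions. Vcan (probe set 10410931) measured 11.85, 11.50 and 12.20 in ascending aorta and 12.54, 12.32 and 12.27 in descending aorta. Every ascending array was below every descending array, with replicate 3 the nearest to them. The means of 11.85 ± 0.35 and 12.38 ± 0.14 (SD, n = 3 each) differed by -0.53 ± 0.17 (SE), with a 95% interval from -0.93 to -0.13 that takes no account of the number of genes tested (limma adjusted p = 0.53). Without ascending replicate 3 the difference was -0.70 ± 0.13 (limma adjusted p = 0.0265), and without ascending replicate 2 it was -0.35.

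Has2 (probe set 10428707) went the other way. It measured 7.58, 7.27 and 7.06 in ascending aorta and 7.05, 6.78 and 6.84 in descending aorta. Ascending values were all higher, though replicate 3 exceeded descending replicate 1 by less than the spread within either group. The difference was 0.41 ± 0.14 (SE; limma adjusted p = 0.53), and 0.54 ± 0.13 without ascending replicate 3, where it did not pass (limma adjusted p = 0.0615). Its signal lay below the median gene on each array. So the enzyme that makes hyaluronan and the proteoglycan that binds it had differences of opposite sign.

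Fibronectin, the main adhesive glycoprotein of provisional matrix and a ligand of integrin alpha 5 beta 1, differed little. Fn1 (probe set 10355403) measured 13.46, 13.55 and 13.60 in ascending aorta and 13.71, 13.69 and 13.66 in descending aorta. The groups did not overlap, and the difference was -0.15 ± 0.075 (SE), with a 95% interval from -0.32 to 0.026 (limma adjusted p = 0.56). Without ascending replicate 3 it was -0.18 ± 0.089 (limma adjusted p = 0.362; 0.35 to 0.841 over the alternatives).

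**Figure D2:**
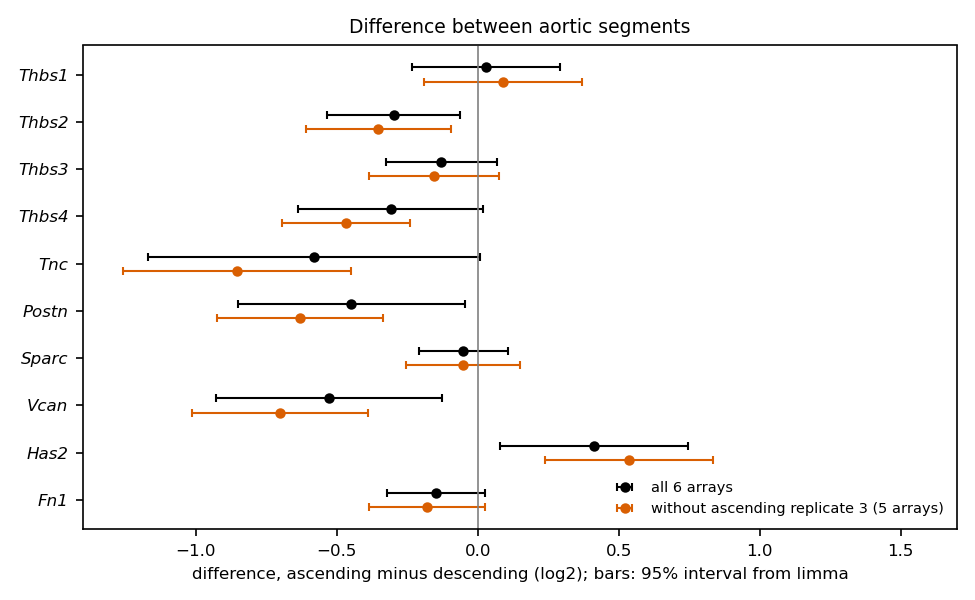
Difference between segments (ascending minus descending, log2) for each gene, with 95% intervals from limma that take no account of the number of genes tested, over all 6 arrays (black) and without ascending replicate 3 (orange, 5 arrays). Points left of the line at 0 are lower in ascending aorta, and removal of that array moves Tnc from -0.58 to -0.85 and Vcan from -0.53 to -0.70 while Sparc stays at -0.05.

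The ascending arrays were all below the descending arrays for 5 members (Thbs2, Thbs3, Sparc, Vcan and Fn1), beside 8.95% of all genes, and all above them for 1 (Has2), beside 5.87%. For Thbs3, Vcan and Has2 the gap between the nearest arrays of the segments was small against the spread within them. The gap was also below the SD of both segments for Thbs2, and below that of the ascending arrays for Fn1. Without ascending replicate 3, 4 members passed, beside 4.68% of all genes. All 4 were lower (Thbs4, Tnc, Postn and Vcan), beside 2.61% of all genes, and 0 were higher, beside 2.07%. When descending replicate 1, the descending array least like the others of its segment across genes, was left out as well, 0 members passed, beside 2.35% of all genes (1.18% lower and 1.17% higher). The differences then were -0.82 for Tnc, -0.69 for Postn, -0.62 for Vcan, -0.44 for Thbs4 and 0.62 for Has2 (limma adjusted p from 0.0656 to 0.13 for these 5). No member passed in any fit that kept ascending replicate 3.

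Tnc, Postn, Vcan and Thbs4 shared their lowest arrays, ascending replicate 2 and then replicate 1, but not the order of the other 4 arrays. Ascending replicate 2 gave the lowest value of the 6 arrays for Tnc, Postn, Vcan, Thbs4 and Sparc, where it gave the lowest for 24.4% of all genes. Ascending replicate 1 was the lowest for Thbs2, Thbs3 and Fn1, beside 17.7% of all genes. The position of replicate 3 was expressed as the share of the way from the mean of the descending arrays (0) toward that of ascending replicates 1 and 2 (1). It was -0.020 for Thbs4, 0.043 for Tnc, 0.13 for Postn and 0.26 for Vcan. The same position was 0.31 for Has2, 0.46 for Fn1, 0.50 for Thbs3 and 0.53 for Thbs2. It was 0.90 for Sparc and -1.04 for Thbs1, whose segment differences are too small to give this share a clear meaning. The low shares of the first 4 genes describe the same values that made them pass only without replicate 3, and are no separate result.

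Tnc, which had the largest difference of the 10, was compared with every other named gene by the root mean square distance between their log2 values, each gene centred on its own mean over the 6 arrays. Igfbp5, a secreted binding protein of insulin-like growth factors, was closest at 0.021. It measured 12.80, 12.16 and 13.30 in ascending and 13.38, 13.28 and 13.30 in descending aorta, nearly the same steps as Tnc. Next came Ttyh2 (0.033), Reps2 (0.057), Scara3 (0.060) and Lurap1l (0.065). Of the members, Vcan was the closest to Tnc, at a distance of 0.15 and rank 122 of 18197 genes, followed by Postn at 0.18 and rank 196 and Thbs4 at 0.22 and rank 420. Thbs1, at 0.47, was farther than the median gene at 0.45, and Has2 stood at 0.65. This distance favours genes whose steps between arrays are of similar size.

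**Figure D3:**
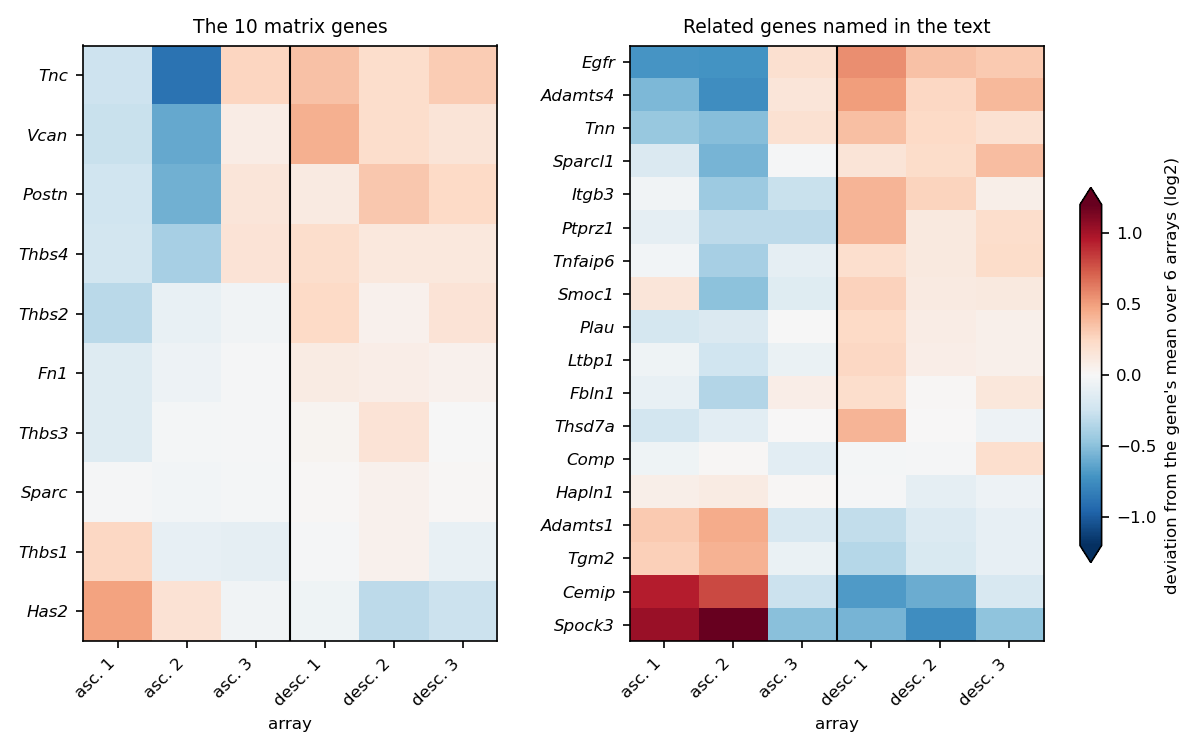
Deviation of each gene (rows) from its own mean over 6 arrays (log2, colour) on each array (columns), for the 10 genes and for the related genes named in the text, both sorted by their difference over all arrays. Tnc, Vcan, Postn and Thbs4 are blue on ascending replicates 1 and 2, and ascending replicate 3 has the colours of the descending arrays in these rows. Thbs2 (-0.32 and -0.087), Thbs3, Fn1 and Sparc also lie below their means on ascending replicates 1 and 2.

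Related genes were followed through lists of family relatives, hyaluronan matrix, proteases, fibronectin partners and receptors. Over all arrays 0 of 69 measured non-member genes passed in limma, and 17 had an unadjusted p under 0.05, beside 9.29% of all genes. Without ascending replicate 3, 7 were lower and 7 higher in ascending aorta, beside the 2.61% and 2.07% of all genes given above. The median difference over the 69 genes was -0.053 with all arrays, closer to that of all genes than the median of the members was. When descending replicate 1 was left out as well, 8 related genes passed; of those named here, Sparcl1 (limma adjusted p = 0.0959), Adamts1 (0.0627) and Tgm2 (0.07) no longer did.

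Among relatives of thrombospondins and tenascins, 6 of 6 had a lower mean in ascending aorta, beside 56.2% of all genes. Over all arrays 0 passed. Without ascending replicate 3, 4 of the 6 had a lower mean and 2 a higher one. Tnn, tenascin N, measured 7.03, 6.98 and 7.67 in ascending and 7.85, 7.72 and 7.67 in descending aorta, with replicate 3 again among the descending values. Its difference was -0.52 ± 0.18 (SE), and it was 1.68-fold lower without ascending replicate 3 (limma adjusted p = 0.00572). The pentameric relative Comp and the thrombospondin-repeat gene Thsd7a differed by -0.11 and -0.23.

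Of 8 measured relatives of Sparc and periostin, 5 had a lower mean. Sparcl1, the closest relative of Sparc, measured 10.56, 10.17 and 10.72 in ascending and 10.89, 10.95 and 11.10 in descending aorta, with no overlap. It differed by -0.50 ± 0.14 (SE; limma adjusted p = 0.53), and was 1.53-fold lower without ascending replicate 3 (limma adjusted p = 0.0412). Spock3, a testican proteoglycan, measured 8.18 and 8.39 on ascending replicates 1 and 2 against 6.64 on replicate 3 and 6.40 to 6.66 in descending aorta. It differed by 1.19 over all arrays (limma adjusted p = 0.53), and was 3.34-fold higher without replicate 3 (limma adjusted p = 0.000354). Smoc1 differed by -0.33. Sparc itself did not share these steps.

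In the hyaluronan and versican list, 8 of 15 measured relatives had a higher mean and 7 a lower one. Cemip, which takes part in the breakdown of hyaluronan, measured 8.42, 8.27 and 7.22 in ascending and 6.80, 6.88 and 7.29 in descending aorta, so replicate 3 lay between descending replicates 2 and 3. It differed by 0.98 over all arrays (limma adjusted p = 0.53), and was 2.56-fold higher without ascending replicate 3 (limma adjusted p = 0.0029). Hapln1, the link protein that locks versican to hyaluronan, differed by 0.13 ± 0.073 (SE) with no overlap between groups, and Tnfaip6, which transfers heavy chains onto hyaluronan, by -0.36 ± 0.11. Neither passed with or without replicate 3.

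Among proteases of versican and provisional matrix, 8 of 11 had a lower mean in ascending aorta and 3 a higher one. The median difference over the 11 was -0.080. Over all genes, 56.2% had a lower mean. Adamts4 measured 8.32, 8.11 and 9.01 in ascending and 9.36, 9.10 and 9.24 in descending aorta. It differed by -0.76 over all arrays (limma adjusted p = 0.53), and was 2.03-fold lower without ascending replicate 3 (limma adjusted p = 0.00296). Adamts1, which also cleaves versican, measured 11.73, 11.86 and 11.22 in ascending and 11.12, 11.25 and 11.32 in descending aorta. It differed by 0.37 over all arrays (limma adjusted p = 0.538), and was 1.48-fold higher without ascending replicate 3 (limma adjusted p = 0.0213). Plau, the urokinase gene, differed by -0.26 ± 0.091 (SE) with no overlap between the segments, and did not pass.

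Among partners of fibronectin, 8 of 12 had a higher mean in ascending aorta, with a median difference of 0.042 over the 12. Over all genes, 56.2% had a lower mean. The fibrinogen genes Fga, Fgb and Fgg, counted among the 8, lay below the median gene and differed by 0.12, 0.012 and 0.046. The crosslinking transglutaminase Tgm2 measured 11.03, 11.16 and 10.66 in ascending and 10.40, 10.56 and 10.64 in descending aorta. It differed by 0.42 over all arrays (limma adjusted p = 0.53), and was 1.48-fold higher without ascending replicate 3 (limma adjusted p = 0.0264). Ltbp1, which binds latent TGF-beta to fibronectin-rich matrix, differed by -0.25 ± 0.092 (SE) and Fbln1, fibulin 1, by -0.25 ± 0.12.

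Of 17 receptors and binding partners, 11 had a lower mean in ascending aorta, with a median difference of -0.24, and for 7 of them the segments did not overlap. Over all genes, 56.2% had a lower mean, and the segments did not overlap for 14.8% (8.95% lower and 5.87% higher in ascending aorta). Ptprz1, a receptor phosphatase that binds tenascin C, measured 9.43, 9.22 and 9.22 in ascending and 9.94, 9.66 and 9.75 in descending aorta. Itgb3, the integrin beta 3 subunit of receptors for fibronectin, thrombospondin 1 and periostin, measured 9.75, 9.35 and 9.52 against 10.19, 10.05 and 9.86. On both genes ascending replicate 3 kept with the other ascending arrays, unlike on Tnc. They differed by -0.49 ± 0.10 and -0.49 ± 0.13 (SE; limma adjusted p = 0.53 for each). Egfr, a receptor to which tenascin repeats bind weakly, measured 10.79, 10.78 and 11.69 against 12.05, 11.85 and 11.81. It differed by -0.81 over all arrays (limma adjusted p = 0.53), and was 2.17-fold lower without ascending replicate 3 (limma adjusted p = 0.00143).

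Markers of other cell types differed between the same arrays. Endothelial markers had a lower mean in ascending aorta in 12 of 12 genes, and the list mean (log2) was 10.41, 10.38 and 10.93 on the ascending and 11.20, 11.02 and 11.02 on the descending arrays. Mesothelial and epicardial markers had a higher mean in 7 of 8 genes, with list means of 10.08, 10.15 and 8.94 on the ascending and 8.64 to 8.88 on the descending arrays. Cardiac muscle markers were higher by their means in 12 of 12, with list means of 8.82, 9.07 and 8.45 in ascending and 8.22 to 8.52 in descending aorta. Macrophage and leukocyte markers were lower by their means in 9 of 9, beside 56.2% of all genes. Their list mean was highest on ascending replicate 3, at 9.06. The differences of Csf1r, Adgre1, Lyz2, Tyrobp and Aif1 turned positive in at least 1 fit that left out 1 array, and those of the rest did not. Ascending replicate 2 was far below all others at 7.92, against 8.69 to 9.06 on the other 5 arrays. The platelet list, of interest because platelets store thrombospondin 1, was also lowest there, at 7.78 against 8.70 to 9.21, and the erythroid list was at 10.06 against 10.52 to 10.85. Prrx1, a transcription factor of mesenchyme in the cushion and valve list, measured 10.58, 9.57 and 11.71 in ascending and 11.99, 11.66 and 11.68 in descending aorta, with ascending replicate 2 lowest and replicate 1 next, as for Tnc. The whole cushion and valve list had means of 8.91 to 9.04 in ascending and 8.76 to 8.997 in descending aorta, with 6 of 10 genes lower by their means. Others of that list had the opposite sign to Tnc: Tbx20, a transcription factor of the embryonic heart, measured 10.47, 10.77 and 7.665 in ascending and 7.907, 7.449 and 7.979 in descending aorta, and Scx and Msx2 had differences of 0.41 and 0.37 over all arrays. Prrx1 and Tbx20 were singled out after their values were seen. The part of these cell types in the differences of the 10 genes was not tested.

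**Figure D4:**
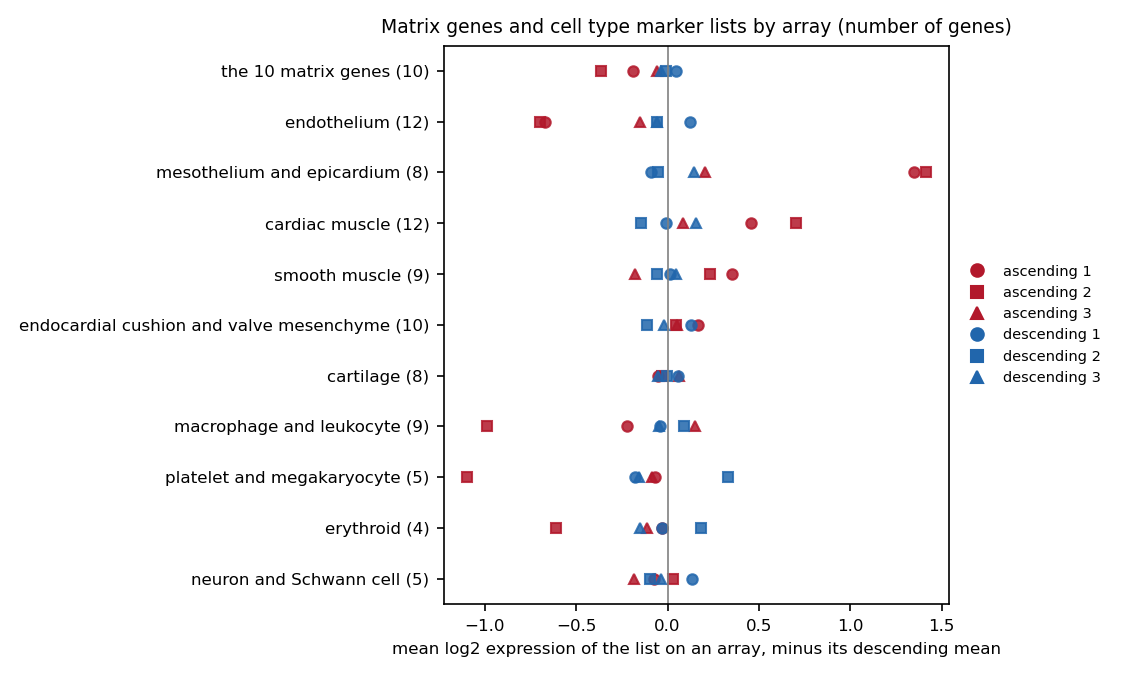
Mean log2 expression of the 10 matrix genes and of each cell type marker list on each array, as the distance from the mean of the 3 descending arrays (symbols as before, red ascending, blue descending; number of genes in parentheses). The matrix genes spread less than the mesothelial or blood cell lists, and ascending replicate 3 lies nearer to the descending arrays than to the other ascending arrays in the matrix, endothelial and mesothelial rows.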

How the data were processed

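The values are log2 expression of probe sets as deposited by the authors after RMA, which corrects background, equalises array distributions and summarises probes; per the submitters' processing notes, which give RMA and Partek 6.6, the settings are unknown, and the genome build is not given in the sources used here. Array medians over the 35556 probe sets lay between 7.14 and 7.22. Because the authors made the distributions alike, a shift common to most genes is not visible. Of the probe sets, 21789 had 1 symbol in the platform annotation, 1621 several and 12146 none; the probe set with the highest mean was kept per gene, with no filter on dim genes. The number of arrays limits the precision.

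Segments were compared over all 6 arrays with limma 3.58.1 in R 4.3.3 (lmFit, eBayes, two-sided, Benjamini-Hochberg over 19938 genes, threshold 0.05). The code was run on simulated data with independent noise and shifts larger than the differences of the 10 members. No simulated array resembled the other segment, so that run does not show how the fit behaves on these data. With 3 arrays against 3, the smallest p of an exact permutation test is 0.1, and no such test was run. Alternatives were a repeated quantile normalization, median-centring, removal of genes under the 25th or under the 50th percentile by mean, averaging over the probe sets of a gene, eBayes with trend and robust options, unmoderated variance, weighted arrays, a block for the replicate number and each array left out. The members and lists were chosen with earlier results of these data known. The text names all 10 members, the 3 non-member genes with the smallest unadjusted p of each related list, and the 5 genes nearest to the member with the largest difference. Fga, Fgb and Fgg are named outside this rule, as are the related genes under other observations. Marker genes are given beside results only. Leaving out descending replicate 1 together with ascending replicate 3 was chosen after seeing the data. Tables and plots were made in Python 3.11.15 (pandas 2.3.3, matplotlib 3.10.9).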

Additional observations from a re-analysis of the deposited data

How the results depend on the processing

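Over 9 settings of normalization, filter, probe set choice, variance model, weights and block, 0 members and 0 genes in all passed the threshold, as with all arrays, and each member kept its sign where it was tested; the 50th percentile filter removed Thbs4 and Has2. The fit with the replicate number as a block (replicate block) called 0 genes, with a difference of -0.58 for Tnc (limma adjusted p = 0.602). Same-numbered arrays did not deviate together across genes (correlations of -0.080, -0.055 and 0.024). With so few arrays this cannot show whether same-numbered samples came from the same embryos, which the labels do not say. The block changed no call. Leaving out each array in turn, with the fit of 4 arrays included, gave 0 to 933 genes in all, 0 to 4 members and 0 to 14 of the related genes; all counts above 0 came from fits without ascending replicate 3. Without it and descending replicate 1 together, 469 genes, 0 members and 8 related genes passed. The direction of Thbs1 reversed to -0.088 without ascending replicate 1 and to -0.0057 without descending replicate 3. Among fits that left out arrays, the Thbs1 difference reached 0.0891 without ascending replicate 3 and descending replicate 1. Over all settings it was highest with weighted arrays, at 0.105. The median difference over the members ranged from -0.27 without ascending replicate 3 to -0.16 without ascending replicate 1. Thbs4 and Has2 lay below the median gene, which limits what can be seen of them. The same holds for the related gene Tnn on every array. It also holds for Spock3 and Cemip on the descending arrays and ascending replicate 3. The cause of these dependencies was not tested.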

Other observations

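Some related genes outside the rule for named genes passed without ascending replicate 3, and are given as values chosen after they were seen. Cd36 and Cd47, both receptors of thrombospondin 1, were lower in ascending aorta in that fit. Cd36 measured 7.87, 7.31 and 9.16 in ascending and 9.61, 9.21 and 9.22 in descending aorta, 3.38-fold lower without replicate 3 (limma adjusted p = 0.00232) and -1.23 ± 0.42 (SE) on the log2 scale over all arrays. Cd47 measured 10.05, 9.81 and 10.29 against 10.52, 10.48 and 10.34, a 1.43-fold difference without replicate 3 (limma adjusted p = 0.0416) and -0.40 ± 0.13 (SE) over all arrays, with no overlap between the segments. Thbs1, their ligand, differed by 0.028 over all arrays. Stab1, a scavenger receptor that takes up Sparc, was 1.80-fold lower in the same fit (limma adjusted p = 0.0058), with ascending replicate 3 at 11.18, level with the descending mean of 11.18. Its difference over all arrays was -0.57 ± 0.23 (SE).

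The other 3 related genes were higher in that fit. Itga4, the integrin alpha 4 subunit that binds fibronectin, measured 10.76 and 11.18 on ascending replicates 1 and 2, 9.86 on replicate 3 and 10.07 to 10.27 in descending aorta (limma adjusted p = 0.0199). The cartilage proteoglycan Acan, a relative of versican, measured 9.78, 9.54 and 8.61 in ascending and 9.19, 8.54 and 8.73 in descending aorta (limma adjusted p = 0.0436), the opposite sign to Vcan. The syndecan Sdc4, a co-receptor for fibronectin, was 1.33-fold higher (limma adjusted p = 0.0408). Their differences over all arrays were 0.41 for Itga4, 0.49 for Acan and 0.26 for Sdc4. Over all alternatives the adjusted p in limma was 0.00232 to 0.841 for Cd36, 0.0416 to 0.841 for Cd47, 0.0058 to 0.841 for Stab1, 0.0199 to 0.911 for Itga4, 0.018 to 0.861 for Acan and 0.0408 to 0.841 for Sdc4. With ascending replicate 3 and descending replicate 1 both left out, Cd47 (limma adjusted p = 0.126), Itga4 (0.0726) and Sdc4 (0.0973) no longer passed, and Cd36 (0.0154), Stab1 (0.0267) and Acan (0.018) did.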
